A study of Mnemiopsis leidyi with 50 samples.

Results

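MlNR1 (protein model ML073417a) and MlNR2 (ML305522a) are nuclear receptor genes of the ctenophore *Mnemiopsis leidyi*. They were chosen by name, as the nuclear receptors that the study discusses among its candidate regulators, and their levels in these embryos were no part of the rule. They make up 2 of the 16548 protein models in the count table, of which 15152 had at least 1 count.

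Nuclear receptors are transcription factors of animals, and many of them change activity when a small molecule such as a steroid, retinoid or fatty acid occupies their ligand-binding domain. Most also carry a zinc-finger domain that contacts DNA, whereas the nuclear receptors known from *M. leidyi* lack that domain and keep the ligand-binding one. In bilaterians, relatives such as HNF4 and RXR control metabolism and differentiation. In the study, MlNR2 belongs to the colloblast candidates, which are genes missing from ctenophores without colloblasts, the adhesive cells of the tentacles. MlNR1 came into view through single-cell profiles.

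Whole embryos were frozen one by one, and the RNA of each was sequenced from its 3′ end by CEL-Seq, a protocol that pools barcoded samples. The adults were collected from an estuary and spawned in the laboratory, the labels name no engineered genotype or treatment, and age in hours post fertilization (hpf) was the only labelled difference between groups. The 49 embryos at 1 to 20 hpf covered 25 time points. By the embryo numbers in the labels they fell into a first set of 19 (numbers 42 to 60), with 1 embryo at each of 18 time points up to 13 hpf and 1 at 20 hpf, and a second set of 30 (numbers 61 to 90), with 3 embryos at 13 and at 20 hpf and 4 at each hour between. The labels do not say whether embryos of an hour shared parents, so every p-value measures the spread between these embryos only. The first set holds 1 embryo per time point, so the spread over its pooled time points also includes change with time. All time points before 13 hpf come from the first set, so among the later embryos only those at 13 and 20 hpf allow the sets to be compared at the same age.

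Counts assigned to models ranged from 138478 to 1265333 per embryo in the first set and from 18731 to 2079694 in the second. Counted reads made up 30.2–33.8% of the reads of an embryo in the first set and 10.2–22.8% in the second. The embryo at 5.5 hpf, 1 embryo at 15 hpf and 2 at 19 hpf had less than the median total divided by 3. An embryo at 0 hpf held 1119 counts, with 2 from MlNR1 and 0 from MlNR2, and was not used in the comparisons except where named. Levels are given as CPM, the counts of a model per 1000000 counted reads of that embryo. Intervals on single values and on pooled counts cover counting error only and leave out the spread between embryos.

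MlNR1 was highest in the youngest embryos and fell through the first 13 hours. The level was 718 CPM at 1 hpf, 1013 at 2 hpf, 964 at 3 hpf and 698 at 4 hpf. These 4 embryos averaged 848 ± 164 CPM (SD, n = 4) and lay above every later embryo of the series. Between 4.5 and 6.5 hpf the level was 467 CPM at 4.5, 613 at 5, 441 at 5.5, 641 at 6 and 266 at 6.5 hpf. These 5 embryos averaged 485 ± 151 CPM (SD, n = 5).

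From 7 hpf on the values were lower still. The level was 254 CPM at 7, 362 at 7.5, 223 at 8, 151 at 8.5 and 242 at 9 hpf, for a mean of 246 ± 75.9 CPM (SD, n = 5). In the last 4 embryos of this stretch it was 192 CPM at 10, 114 at 11, 138 at 12 and 74.7 at 13 hpf, for a mean of 130 ± 49.0 CPM (SD, n = 4). The embryos at 10 to 13 hpf did not overlap with those at 1 to 4 hpf or at 4.5 to 6.5 hpf, and their range overlapped with that at 7 to 9 hpf. The mean at 1 to 4 hpf was 6.54 times that at 10 to 13 hpf.

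**Figure D1:**
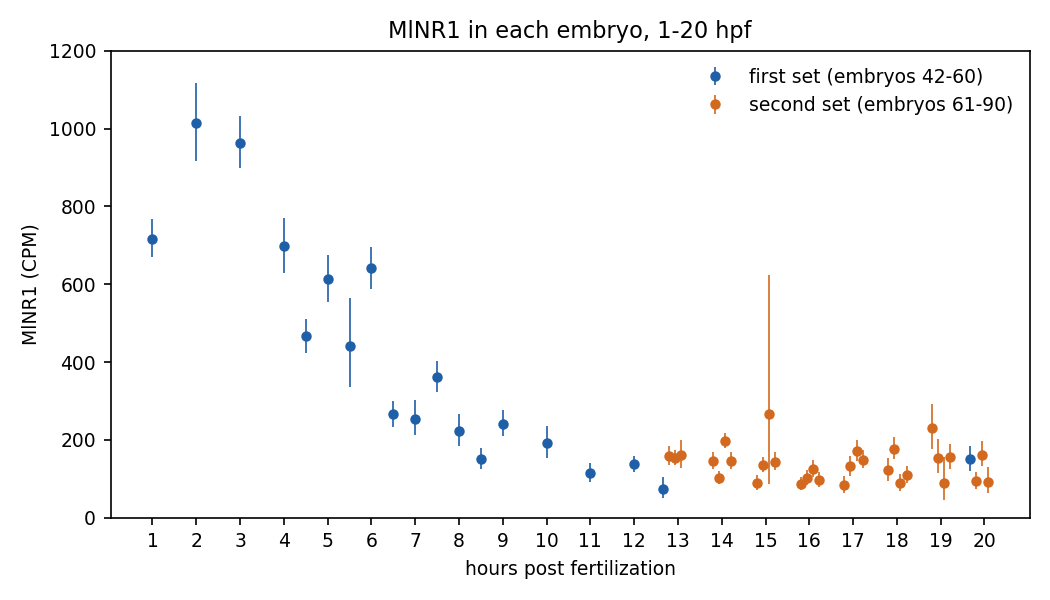
MlNR1 level (CPM, vertical axis) in each of 49 embryos against hours post fertilization (horizontal axis), blue for the first embryo set and orange for the second. Bars are exact Poisson 95% intervals of each count, and points of the same hour are shifted sideways. The level fell from 698–1013 CPM at 1 to 4 hpf to 74.7–192 CPM at 10 to 13 hpf, and the embryos of the second set lay between 83.9 and 267 CPM.

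Changes were tested in edgeR by quasi-likelihood over all models that passed a filter on low counts, and p-values were adjusted by the Benjamini-Hochberg method. In whole embryos, fewer cells of a type and less RNA per cell cannot be told apart. The level of MlNR1 changed over the 4 windows of the first set (edgeR adjusted p = 1.45e-05), in a comparison in which 48.4% of 5640 models passed. From 1–4 to 10–13 hpf it fell by 2.26 on the log2 scale (SE 0.30, edgeR adjusted p = 6.28e-06). In that contrast, which was added after the stepwise ones had been seen, 20% of models were called lower, and 2.85% of models had a lower fold change than MlNR1. The median over all models was -0.01, and 57.6% of the called models were higher. With RLE factors the median was 0.27 and 70.3% were higher, and without factors -0.45 and 39.9%, and the fold change of MlNR1 was -1.98 and -2.70.

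No single step between neighbouring windows passed the threshold. The log2 fold change of MlNR1 was -0.72 (SE 0.27, edgeR adjusted p = 0.105) from 1–4 to 4.5–6.5 hpf, -0.79 (SE 0.26, edgeR adjusted p = 0.0506) from there to 7–9 hpf and -0.75 (SE 0.28, edgeR adjusted p = 0.113) from there to 10–13 hpf. The 3 steps were of like size. Models called lower in these steps made up 1.83%, 3.53% and 2.5% of those tested. Without TMM factors the middle step was -0.98 (edgeR adjusted p = 0.0216) and with limma voom -0.77 (adjusted p = 0.0465), so its side of the threshold depended on the setting.

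Across the 19 embryos of the first set MlNR1 followed the hour, with Pearson's r = -0.78 (permutation p = 5e-05, adjusted 0.0003 over 6 relations) and Spearman's rho = -0.96 (permutation p = 1e-05, the smallest that 100000 resamples can give, adjusted 6e-05). Without the 2 embryos farthest from the median hour r was -0.89. The mean was 848 CPM at 1–4 hpf, 485 at 4.5–6.5 hpf, 246 at 7–9 hpf and 130 at 10–13 hpf.

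The study's own division sets embryos at 0–9 hpf against those at 12–20 hpf, by whether the ratio of late to early expression is above 1. Here the early window began at 1 hpf and the windows were compared by CPM and edgeR. MlNR1 ranged from 151 to 1013 CPM (median 454) in 14 embryos at 1 to 9 hpf and from 74.7 to 267 CPM (median 138) in 33 embryos at 12 to 20 hpf. The ranges overlapped through the embryos at 6.5, 7, 8, 8.5 and 9 hpf, and the early mean, 504 ± 278 CPM (SD, n = 14), was 3.70 times the later one, 136 ± 43.3 CPM (SD, n = 33). MlNR1 was lower in the later window, and the edgeR log2 fold change was -1.91 (SE 0.15, edgeR adjusted p = 1.47e-16). With the embryo at 0 hpf added it was -1.88 (edgeR adjusted p = 2.29e-16).

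Much of the table differed between these windows: 76.2% of 6852 models were called and 31.7% were called lower, and the median fold change of all models was 0.27 on the log2 scale. In 3.23% of models the fold change was below that of MlNR1. With embryo set as a term in the model, the fold change of MlNR1 was -1.88 (edgeR adjusted p = 9.05e-05). Within the first set alone, where 14 embryos at 1 to 9 hpf were set against those at 12, 13 and 20 hpf (138, 74.7 and 150 CPM), it was -1.75 (SE 0.46, edgeR adjusted p = 0.0099), beside 11.2% of 6058 models called lower. Leaving out the embryo at 13 hpf ended that call, with -1.35 (edgeR adjusted p = 0.0832).

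From 13 to 20 hpf no change of MlNR1 was detected in the second set. It lay between 83.9 and 267 CPM in 30 embryos, with a median of 140 and a mean of 138 ± 44.0 CPM (SD, n = 30). The highest value belonged to the shallowest embryo of this set, at 15 hpf, where 5 counts gave an exact Poisson 95% interval of 86.7 to 623 CPM. The test of any change over the 8 hours gave an edgeR adjusted p of 0.90, in a comparison in which 3.03% of 8940 models passed. The slope was -0.01 per hour on the log2 scale (SE 0.03, edgeR adjusted p = 0.953, with 7.78% of models called), and its sign turned on leaving out 1 embryo at 14 hpf or 1 at 20 hpf.

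Ordered by mean over the embryos of both sets, the hours ran 15 (159 ± 76.2 CPM, SD, n = 4), 19 (157 ± 57.5), 14 (148 ± 38.7), 13 (137 ± 41.5), 17 (134 ± 37.4), 20 (125 ± 36.4), 18 (125 ± 38.0) and 16 hpf (103 ± 16.0). Every pair of neighbours in that order overlapped. The place of 15 hpf rests on the embryo with 5 counts, since the pooled level was 126 CPM at 15 hpf, 152 at 14 hpf and 164 at 19 hpf. Among the 28 pairs of hours in the second set, 0 had an unadjusted p under 0.05 for MlNR1 by edgeR.

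The sets met at 13 and 20 hpf. At 13 hpf the first set's embryo held 74.7 CPM of MlNR1 and the second set's 154, 158 and 160 CPM. At 20 hpf the first set's embryo held 150 CPM and the second set's 92.3, 94.8 and 162 CPM. The first set's embryo thus lay below the others at 13 hpf and among them at 20 hpf. Over both hours together the sets differed by 0.04 on the log2 scale (SE 0.35, edgeR adjusted p = 0.958, with 5.28% of models called), and that sign turned when any 1 of 5 of the 8 embryos was left out. The change from 13 to 20 hpf in the second set minus that in the first was -1.45 (SE 0.63, unadjusted p = 0.0336, edgeR adjusted p = 0.645 over all models), a comparison in which 0.0906% of models passed. With 1 embryo of the first set at each hour, embryo and set cannot be told apart.

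MlNR2 was counted rarely at every age. It gave 0 to 23 counts per embryo and 231 counts in all over 49 embryos, 10 of which had none. At 1 to 9 hpf the 14 embryos held 25 counts together, and 6 of them held none. The level was 4.34 CPM at 1 hpf, 2.49 at 2 hpf, 0 at 3 hpf and 10.8 at 4 hpf. Between 4.5 and 6.5 hpf it was 2.1 CPM at 4.5 hpf, 1.15 at 6 hpf and 0 in the others, which is 3 counts over 5 embryos. The 0 at 5.5 hpf, in a shallow library, has an exact Poisson 95% upper limit of 26.6 CPM, so a low level there was not detectable.

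From 8.5 hpf on every first-set embryo held at least 1 count of MlNR2. It was 0 CPM at 7 and 8 hpf, 1.08 at 7.5, 6.27 at 8.5 and 4.75 at 9 hpf. It was 4.13 CPM at 10, 2.69 at 11, 4.74 at 12 and 2.41 at 13 hpf, and reached 14.8 CPM at 20 hpf. The pooled level was 4.04 CPM at 1 to 4 hpf (exact Poisson 95% interval 2.09 to 7.05), 0.841 at 4.5 to 6.5 hpf (0.173 to 2.46), 2.78 at 7 to 9 hpf (1.34 to 5.12) and 3.78 at 10 to 13 hpf (1.89 to 6.77).

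**Figure D2:**
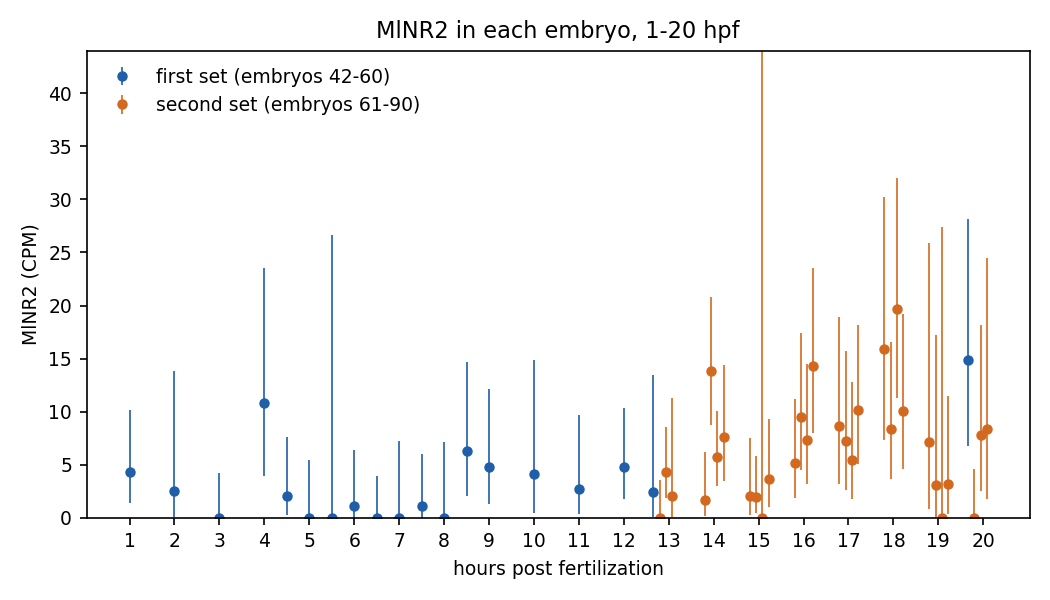
MlNR2 level (CPM, vertical axis) in each of 49 embryos against hours post fertilization (horizontal axis), blue for the first embryo set and orange for the second. Bars are exact Poisson 95% intervals of each count, points of the same hour are shifted sideways, and the interval of the shallowest embryo at 15 hpf runs past the axis to 197 CPM. The highest values are at 18 hpf, and all 12 embryos at 16 to 18 hpf lie between 5.14 and 19.7 CPM.

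MlNR2 passed the main filter only in the comparisons of hours within the second set, and was tested elsewhere, the slope and the difference between sets included, under a filter of 10 counts in total. Over the 4 windows of the first set no change was detected (edgeR adjusted p = 0.363, with 39% of 9963 models passing). The step from 1–4 to 4.5–6.5 hpf was -2.01 on the log2 scale (SE 1.10, edgeR adjusted p = 0.32, with 4.96% of models called) and that to 7–9 hpf 1.66 (SE 1.09, edgeR adjusted p = 0.386, with 6.51% called). With limma voom these steps were -1.01 and 0.80. From 7–9 to 10–13 hpf it was 0.44 (SE 0.99, edgeR adjusted p = 0.871, with 5.12% called). Each standard error was about 1 on the log2 scale, so small changes between windows were not detectable at this depth.

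At 12 to 20 hpf MlNR2 ranged from 0 to 19.7 CPM (median 5.77) in 33 embryos, and at 1 to 9 hpf from 0 to 10.8 CPM (median 1.11) in 14. The ranges overlapped, and the later mean of 6.56 ± 5.03 CPM (SD, n = 33) was 2.78 times the early one of 2.36 ± 3.20 CPM (SD, n = 14). MlNR2 was higher in the later window and its log2 fold change was 1.33 (SE 0.47, edgeR adjusted p = 0.00996), where 71.6% of 13752 models were called and 52.7% were called higher. With the embryo at 0 hpf added the fold change was again 1.33 (edgeR adjusted p = 0.00906). A permutation test of the CPM gave p = 0.00597 (adjusted 0.0358 over 6 comparisons of CPM).

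That call rested on embryos of both sets, which also differ in the share of reads counted, whose part in the result was not tested. With embryo set as a term it was lost, and the log2 value was 1.68 (edgeR adjusted p = 0.124). Within the first set alone the later embryos held 4.74 CPM at 12 hpf, 2.41 at 13 hpf and 14.8 at 20 hpf. The log2 fold change there was 1.63 (SE 0.94, edgeR adjusted p = 0.232), beside 13.7% of models called higher, and an exact permutation test of the CPM gave p = 0.0441 (adjusted 0.0882), which became p = 0.633 without the embryo at 20 hpf. Against 1 to 9 hpf the embryos at 10 to 13 hpf, all of the first set, held 3.49 ± 1.12 CPM (SD, n = 4; exact permutation p = 0.508).

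In the second set MlNR2 had its highest hourly means at 16 to 18 hpf. At 16 hpf it was 5.14, 9.48, 7.34 and 14.3 CPM. At 17 hpf it was 8.68, 7.21, 5.48 and 10.1 CPM. At 18 hpf it was 15.9, 8.41, 19.7 and 10.1 CPM. These 12 embryos all held MlNR2 counts.

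The means at 13, 15 and 19 hpf were lower, and those at 14 and 20 hpf lay between. In the second set MlNR2 was 0, 4.36 and 2.03 CPM at 13 hpf. It was 2.08, 2.01, 0 and 3.62 CPM at 15 hpf, where the embryo at 0 was the shallowest of those at 1 to 20 hpf, and 1.71, 13.9, 5.77 and 7.57 CPM at 14 hpf. It was 7.18, 3.09, 0 and 3.17 CPM at 19 hpf, and 0, 7.79 and 8.39 CPM at 20 hpf.

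By mean over both sets the order of hours was 18 (13.5 ± 5.22 CPM, SD, n = 4), 16 (9.06 ± 3.90), 17 (7.87 ± 2.00), 20 (7.76 ± 6.08), 14 (7.23 ± 5.06), 19 (3.36 ± 2.94), 13 (2.2 ± 1.79) and 15 hpf (1.93 ± 1.48), and each hour overlapped with the next in that order. Any change over the 8 hours had an unadjusted p of 0.0457 and an edgeR adjusted p of 0.372. The largest contrast between 2 hours was that of 18 against 13 hpf, at 2.48 on the log2 scale (SE 0.86, unadjusted p = 0.00636, edgeR adjusted p = 0.137). Of 28 pairs of hours 6 had an unadjusted p under 0.05 by edgeR. After adjustment over the models within each contrast 0 passed, and no adjustment was made over the 28 pairs. The 18 hpf embryos of the second set lay above all of its 13 hpf embryos. These hours were picked as the largest contrast on the same values, so that separation is no further support. A model can also pass the filter of this fit through its highest embryos alone, and for MlNR2 these include embryos at 18 hpf.

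The contrast of 20 against 13 hpf in the second set was 1.12 (SE 0.98, edgeR adjusted p = 0.698, with 3.2% of models called) and the slope 0.11 per hour (SE 0.11, edgeR adjusted p = 0.712, with 4.68% called), both on the log2 scale. Without single embryos the contrast of these hours ranged from 0.43 to 2.60, and with limma voom it was 0.54. At 13 and 20 hpf the second set minus the first was -1.23 (SE 1.22, edgeR adjusted p = 0.63, with 3.84% called).

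Where both genes were counted, the ratio of their counts in an embryo needs no scaling between embryos. Its log2, with 0.5 added to each count, ranged from 4.45 to 10.7 in 14 first-set embryos at 1 to 9 hpf and was between 4.39 and 5.22 in the 4 embryos at 10 to 13 hpf. All early embryos but that at 8.5 hpf lay above the 4 later ones. The mean fell from 7.65 ± 1.64 (SD, n = 14) to 4.86 ± 0.37 (SD, n = 4), a difference of -2.79 with an exact permutation p of 0.00458. Where MlNR2 was at 0, the ratio depends on the added count and on the depth of the embryo. This held for 6 of the 14 embryos at 1 to 9 hpf and 0 of the 4 at 10 to 13 hpf. With 1 added the difference was -2.47 (exact permutation p = 0.00294).

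In the second set the mean ratio was 4.73 ± 1.46 (SD, n = 15) at 13 to 16 hpf and 4.21 ± 1.22 (SD, n = 15) at 17 to 20 hpf. The difference of -0.53 was within the spread between embryos (permutation p = 0.301). No correlation between MlNR1 and MlNR2 across embryos passed the threshold. Pearson's r was -0.17 (permutation p = 0.493) over 19 embryos of the first set and -0.32 (permutation p = 0.0856, adjusted 0.171) over 30 of the second, with Spearman's rho of -0.29 (permutation p = 0.234) and -0.26 (permutation p = 0.17). Without the 2 embryos farthest from the median MlNR2 level r was -0.29 and -0.25.

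**Figure D3:**
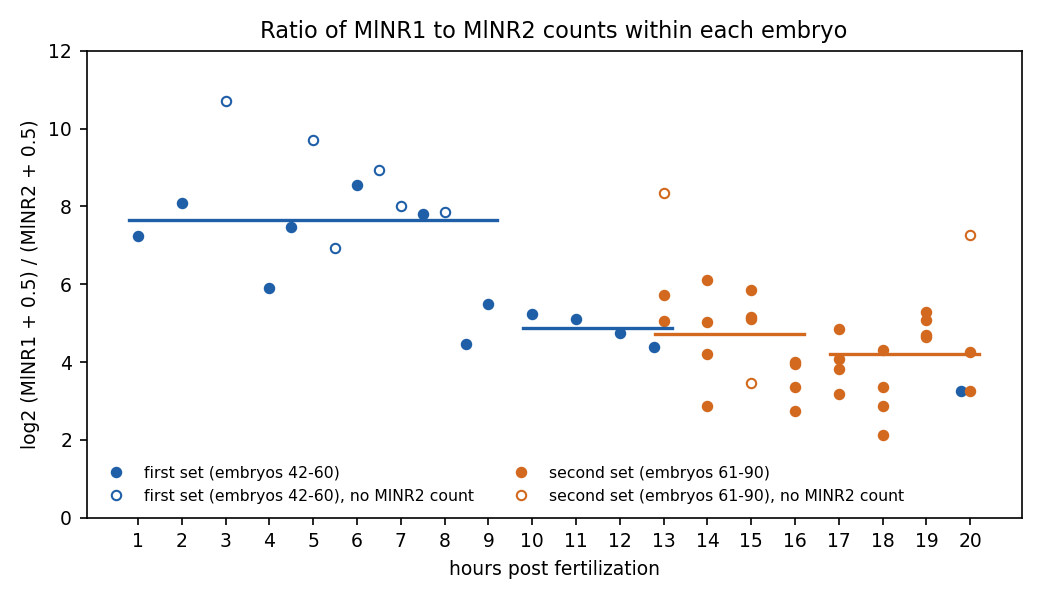
Log2 ratio of MlNR1 to MlNR2 counts, each with 0.5 added (vertical axis), in each of 49 embryos against hours post fertilization (horizontal axis), blue for the first set and orange for the second, with open circles for embryos without an MlNR2 count. Lines are the group means of 7.65 at 1 to 9 hpf and 4.86 at 10 to 13 hpf in the first set and of 4.73 and 4.21 in the second, and first-set points at 13 and 20 hpf are shifted sideways.

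The relation of MlNR2 to the hour in the first set, at r = 0.51 (permutation p = 0.0325, adjusted 0.0976) and rho = 0.33 (permutation p = 0.163), fell to r = 0.14 without the 2 embryos farthest from the median hour and so rested on these. In the second set r with the hour was -0.17 (permutation p = 0.366, adjusted 0.44) for MlNR1, with rho = -0.16 (permutation p = 0.395), and 0.20 (permutation p = 0.302, adjusted 0.44) for MlNR2, with rho = 0.21 (permutation p = 0.256). Without the 2 embryos farthest from the median hour r was -0.14 and 0.11.

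Likeness was the mean of 2 Pearson correlations of log2(CPM + 1), over 19 embryos of the first set and 30 of the second, among the 5484 models, MlNR1 included, that passed the filter in both sets. These are descriptions, since all models were measured in the same embryos, which differ widely in depth. Closest to MlNR1 were ML033627a (r = 0.94 and 0.60), ML102220a (0.88 and 0.57) and ML37637a (0.75 and 0.61). All 3 had a lower mean at 10 to 13 than at 1 to 4 hpf. They were chosen by likeness to MlNR1 in these same embryos, so this is no separate result. ML033627a averaged 432 CPM at 1 to 4 hpf and 103 at 10 to 13 hpf, ML102220a 252 and 82.3, and ML37637a 240 and 88.7. Closest to MlNR2 were ML185515a (0.66 and 0.44), ML085721a (0.58 and 0.51) and ML10191a (0.71 and 0.38), which are weaker likenesses at a gene of few counts. None of these models was found in the annotated part of the study's candidate lists used here, so membership of the full lists is not settled.

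**Figure D4:**
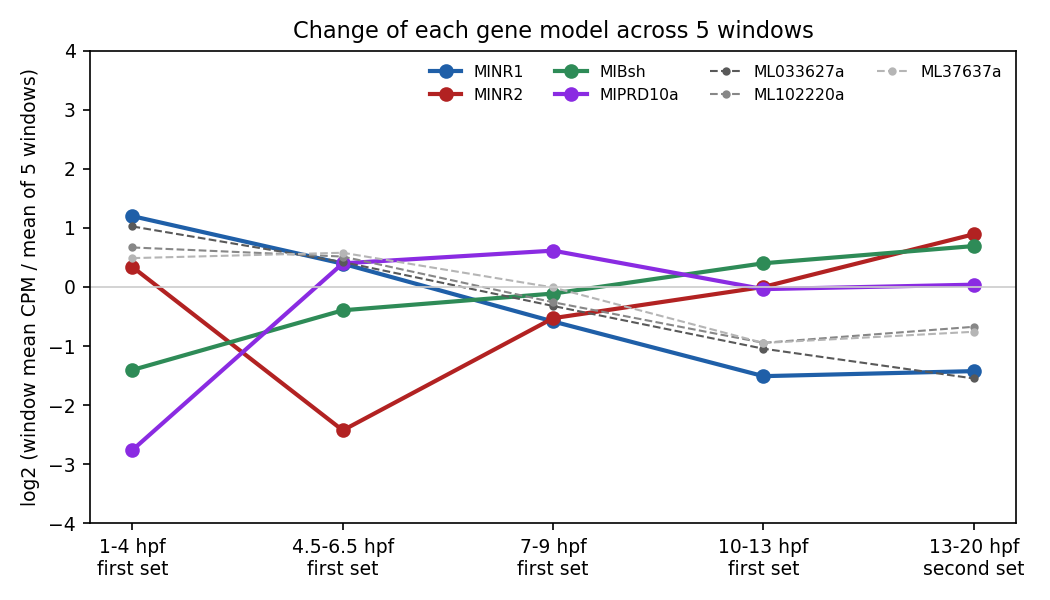
Log2 of the mean CPM of a window over that gene model's own mean of the 5 windows (vertical axis) for 4 windows of the first embryo set and for the second set (horizontal axis). Solid lines are MlNR1, MlNR2, MlBsh and MlPRD10a, and dashed grey lines the 3 models most like MlNR1, whose means were also highest before 7 hpf, while MlBsh was lowest at 1 to 4 hpf and MlPRD10a was low there only.

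Apart from the nuclear receptors the study names MlBsh, MlIslet and MlPRD10a, all homeodomain transcription factors, a class that binds DNA and patterns cell types in other animals. MlBsh, related to the brain-specific homeobox gene of flies, averaged 9.97 ± 6.16 CPM (SD, n = 4) at 1 to 4 hpf and 34.9 ± 12.2 CPM (SD, n = 4) at 10 to 13 hpf, without overlap, and rose by 2.35 on the log2 scale (SE 0.50, edgeR adjusted p = 0.000602). In this contrast 27.1% of models were called higher. MlNR1 and MlBsh thus moved in opposite directions over the same embryos.

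MlPRD10a, a paired-like homeodomain gene, went from 10.2 ± 19.6 CPM (SD, n = 4) at 1 to 4 hpf, where 22 of the 23 counts came from 1 embryo and the median was 0.578 CPM, to 91.2 ± 59.0 CPM (SD, n = 5) at 4.5 to 6.5 hpf, a rise of 3.44 (SE 0.82, edgeR adjusted p = 0.0103) beside 6.88% of models called higher. MlIslet, of the LIM-homeodomain class, had 0 counts in the 4 embryos at 1 to 4 hpf and 28 counts in the 4 at 10 to 13 hpf. Under the filter of 10 counts in total it was called higher between these windows (edgeR adjusted p = 0.000742), where 28.5% of models were. Of the 5 named factors tested over 8 hours in the second set, 0 passed (edgeR adjusted p of 0.372 to 0.944), where 3.03% of 8940 models did. By unadjusted p under 0.05 the count is 1, MlNR2, and with DESeq2 and limma voom neither nuclear receptor was called.

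MlNR2 and MlPRD10a are among the 5 candidates that the study's annotation ties to DNA binding or transcription. The other 3 were ML003220a (annotated as a histone H5), ML11132a (a paired amphipathic helix protein) and ML073244a (a TAFH/NHR1 domain protein). ML003220a went from 0 counts in all 9 embryos at 1 to 6.5 hpf to 671 ± 392 CPM (SD, n = 30) in the second set, and its level rose by the hour there, at 0.37 per hour on the log2 scale (SE 0.04, edgeR adjusted p = 3.05e-08), beside 5.04% of models. In the first set it averaged 8.33 ± 8.45 CPM (SD, n = 4) at 10 to 13 hpf, and the sets differed in its change from 13 to 20 hpf, by -5.06 for the second minus the first (SE 0.84, edgeR adjusted p = 0.0194). ML11132a went from 0.434 ± 0.869 CPM (SD, n = 4) at 1 to 4 hpf to 22.0 ± 13.3 CPM (SD, n = 4) at 10 to 13 hpf (edgeR adjusted p = 0.000374 under the filter of 10 counts). ML073244a was counted too rarely to compare, with none in 20 of 30 second-set embryos and 13 of their 26 counts in 1 embryo.

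The copies of the study's candidate annotation used here cover part of its lists and name 161 colloblast and 144 tentacle candidates. Of the 161, which include MlNR2, 41 passed the filter in the first set, and 27 of these were called higher and 1 lower at 10–13 than at 1–4 hpf, where 27.1% of all 5640 models were called higher and 20% lower. Of the 144, 24 passed, and 15 were called higher and 2 lower. The median log2 fold change was 3.61 for the 41 and 2.13 for the 24, against -0.01 over all models. A model can pass this filter through the later window alone, so these counts and medians describe the models that passed and not the lists. MlNR2 was not among the 41, and its own fold change in that contrast was 0.08 (SE 0.99, edgeR adjusted p = 0.956). The lists were used here with earlier results of these embryos known, and they are not independent evidence of a direction.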

How the data were processed

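The deposited values are whole-number counts per protein model (ML2.2), which the authors made with Bowtie2 2.1.0 and HTSeq 0.5.4p3 after base calling with CASAVA 1.8. Not given in the sources used here were the genome build, the counting options and any collapsing of molecular identifiers. Read classes that HTSeq did not count were kept out of totals: 0.740–4.54% of reads were ambiguous, 10.7–24.0% had too low an alignment quality and 45.6–78.4% were not aligned. Models were tested with edgeR 4.0.16 (TMM factors, filterByExpr, quasi-likelihood F-test, Benjamini-Hochberg over all models tested, threshold 0.05). The SE is the fold change divided by the square root of F. MlNR2 failed this filter in most comparisons and was then tested with at least 10 counts in total. Permutation tests were exact with a group under 10 embryos and otherwise used 100000 resamples. Results were recomputed with DESeq2 1.42.0, limma 3.58.1 voom, RLE factors or no factors, no shallow embryos, embryo set as a term and leaving out embryos. The fits were also run on simulated counts with a fixed dispersion, in which only well-counted models were changed. Recovery of a change in a gene as rare as MlNR2 was therefore not covered. Named models were the 2 receptors, the study's other factors and the 3 models most like each receptor; members and lists were chosen with earlier results of these data known.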

Additional observations from a re-analysis of the deposited data

Results flagged for a closer look

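Of 16 groups tested (2 genes at 8 hours of 4 embryos each), 1 held an embryo far from the others by Dixon's criterion, which chance gives in about 1 group in 20. It was MlNR1 at 13 hpf, where the first-set embryo held 74.7 CPM and the others 154, 158 and 160 CPM.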

How the results depend on the processing

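Of 169 values recomputed for the 2 genes under settings other than leaving out embryos, 163 kept their direction and their side of the threshold. The exceptions were these. For MlNR2 at 12–20 against 1–9 hpf, the log2 value was 1.68 with embryo set as a term (edgeR adjusted p = 0.124). For MlNR1 at 7–9 against 4.5–6.5 hpf, library size alone gave -0.98 (edgeR adjusted p = 0.0216) and limma voom -0.77 (adjusted p = 0.0465), both past the threshold. For MlNR2 at 10–13 against 1–4 hpf, library size alone turned the sign to -0.25 (edgeR adjusted p = 0.866). The difference of MlNR2 between 12–20 and 1–9 hpf in the first set was 4.79 CPM without shallow embryos (exact permutation p = 0.0518), and its correlation with the hour there reached 0.61 with TMM factors (permutation p adjusted 0.0321). The cause was not tested in any of these.

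Leaving out embryos in turn, MlNR1 at 12–20 against 1–9 hpf in the first set ranged from -1.79 to -1.35, its step to 7–9 hpf from -0.93 to -0.66 (past the threshold in 4 of 18 fits) and its step to 10–13 hpf from -0.99 to -0.55 (past it in 1 of 18). The slope of MlNR1 in the second set ranged from -0.028 to 0.0046 per hour, its difference between sets from -0.60 to 0.89 and its difference between 17–20 and 13–16 hpf from -13.4 to 2.40 CPM. The difference of MlNR2 at 12–20 against 1–9 hpf in the first set ranged from 1.22 to 7.43 CPM, and 11 of 17 fits missed an unadjusted 0.05.

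Counts of called models moved by more than 1.5 times in these cases. At 12–20 against 1–9 hpf 5218 were called, 9850 without the main filter and 3171 with embryo set as a term. At 10–13 against 1–4 hpf 2657 became 4067 without it. Over the 8 hours 271 became 596 with DESeq2, between sets 349 became 209 with voom, and for the difference of changes 7 became 13 without the filter, 14 with DESeq2 and 0 with voom. Leaving out embryos gave 824 to 1556 at 12–20 against 1–9 hpf in the first set (1480 called), 244 to 765 at 4.5–6.5 hpf (491), 268 to 1013 at 7–9 hpf (703), 177 to 570 at 10–13 hpf (398), 154 to 305 at 20 against 13 hpf (286), 110 to 375 between sets (349) and 5 to 23 for the difference of changes (7).

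Scaling moved the median of all models, at 12–20 against 1–9 hpf to 0.53 with RLE factors and at 10–13 against 1–4 hpf to -0.45 with library size alone. At 0 to 23 counts per embryo, small changes of MlNR2 were not detectable. For MlNR2 under the minimum of 10 counts, fits without single embryos were not run, and the permutation tests of CPM stand in for them. The replicate numbers follow accession order and pair no embryos, and the labels do not say what embryos of a number share. The embryo numbers of the second set run through its hours in 4 series, and a block for the series was added after seeing the data. Deviations from the hour means correlated at a mean of -0.0023 over 98 pairs of embryos of a series and 0.00085 over 295 pairs of different series. With this replicate block the edgeR adjusted p over 8 hours was 0.925 for MlNR1 and 0.418 for MlNR2, the slopes were -0.008 and 0.13 per hour, and 20 against 13 hpf was -0.36 and 1.19, and 0 calls for these genes changed.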
